A study of Mus musculus with 6 samples.

Results

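The lysyl oxidases and the core genes of the elastic fibre were examined in MC38 tumors as a group of 10 genes chosen by symbol. They comprised the 5 lysyl oxidases Lox, Loxl1, Loxl2, Loxl3 and Loxl4, and the 5 elastic fibre genes Eln, Fbn1, Fbln1, Fbln2 and Fbln5. All 10 were found among the 33965 genes of the deposited table and passed the filter on low counts. The tumors were formed by MC38, a colon carcinoma line of the mouse, inoculated subcutaneously into female C57BL/6 mice, bought at 6 weeks of age. Bulk RNA sequencing covered 3 tumors of mice given PBS and 3 tumors of mice given GB2, a prodrug built from the STING agonist MSA-2 and, as TREM2 inhibitor, artesunate. No tumor received MSA-2 or artesunate alone. A GB2 dose of 10 mg/kg applies to the MC38 model, and neither a dose nor a time of collection is stated separately for the sequenced tumors. The tumors of a group are separate samples, the labels do not say that each came from its own mouse, and the p values measure the spread between these samples. Bulk RNA averages over tumor cells, stroma and immune cells, so fewer cells of a type and less RNA per cell cannot be told apart.

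Elastic fibres give tissues recoil. They consist of a core of cross-linked elastin on a scaffold of microfibrils, whose main component is fibrillin-1, the product of Fbn1. Elastin, the product of Eln, is secreted as soluble tropoelastin. Fibulins bind both tropoelastin and fibrillin and bring them together with the cross-linking enzymes. Lysyl oxidases are copper-dependent amine oxidases that convert lysine side chains of elastin and collagen to reactive aldehydes, from which the cross-links form. In tumors these enzymes are known for stiffening the matrix and are made by fibroblasts, endothelial cells and, in part, by the cancer cells.

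Promoter sequence is shown for Fbn1 and Fbln2, which were higher in every GB2 tumor, and for Fbln1 and Fbln5, whose groups overlapped. The sequences come from RefSeq on GRCm38.p6 and hold the 250 bases before an annotated start. Windows of 5 of the 10 genes were used here, 7 in all, which does not show that the other genes lack such an entry. Capitals mark matches on either strand. The motifs searched were the TATA box with the letters TATAAA, the CCAAT box named by its letters, the GC box with the letters GGGCGG, the AP-1 element with the letters TGACTCA, the core of the Smad element with the letters CAGAC, and the core of the hypoxia response element with the letters ACGTG. A GC box on the other strand appears as CCGCCC, a Smad core as GTCTG, and the palindrome CACGTG holds overlapping ACGTG matches on both strands.
Fbn1, chr2:125506439-125506688, minus strand: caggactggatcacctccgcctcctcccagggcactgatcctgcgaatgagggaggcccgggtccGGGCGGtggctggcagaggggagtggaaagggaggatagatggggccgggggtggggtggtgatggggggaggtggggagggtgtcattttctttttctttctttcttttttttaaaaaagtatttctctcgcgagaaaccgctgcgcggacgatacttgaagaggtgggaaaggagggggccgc
Fbln2, chr6:91212514-91212763, plus strand: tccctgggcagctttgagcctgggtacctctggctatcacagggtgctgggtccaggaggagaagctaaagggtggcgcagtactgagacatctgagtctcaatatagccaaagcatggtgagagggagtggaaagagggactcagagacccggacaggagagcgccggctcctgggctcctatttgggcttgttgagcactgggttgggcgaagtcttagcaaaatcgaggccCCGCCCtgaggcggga
Fbln1, chr15:85205758-85206007, plus strand: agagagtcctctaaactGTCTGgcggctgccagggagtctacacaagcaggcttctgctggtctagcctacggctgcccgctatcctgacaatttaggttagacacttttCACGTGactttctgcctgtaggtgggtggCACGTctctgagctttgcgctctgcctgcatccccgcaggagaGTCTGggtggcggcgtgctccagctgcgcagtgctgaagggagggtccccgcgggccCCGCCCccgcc
Fbln5, chr12:101819120-101819369, minus strand: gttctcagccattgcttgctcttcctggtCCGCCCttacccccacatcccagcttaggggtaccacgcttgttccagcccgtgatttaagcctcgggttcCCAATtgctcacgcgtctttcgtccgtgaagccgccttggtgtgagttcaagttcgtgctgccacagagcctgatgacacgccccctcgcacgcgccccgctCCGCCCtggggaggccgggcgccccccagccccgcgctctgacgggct

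The windows printed for Fbn1 and Fbln2 each held 1 GC box and no other match, with a GC content of 59.2% and 58.8%. The printed window of Fbln5 held 2 GC boxes and 1 CCAAT box at a GC content of 65.2%, and a second Fbln5 window, not printed, held 0 GC boxes and 2 Smad cores at 49.6%. The printed window of Fbln1 held 1 GC box, 2 Smad cores and 3 ACGTG matches at a GC content of 62.4%, and a second, overlapping one held the same Smad and ACGTG matches and 0 GC boxes at 46.4%. The window of Loxl4, a gene whose groups overlapped, is not printed and held 3 GC boxes and 1 Smad core at 76.0%. Over all 32851 promoter windows of this length, 32.7% held a GC box, 33.8% a CCAAT box, 42.2% a Smad core, 16.6% an ACGTG, 12.4% a TATA box and 4.5% an AP-1 element. A match is a run of letters and does not show that a factor binds there.

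Differences between the groups were tested over 19602 genes with edgeR's quasi-likelihood test and Benjamini-Hochberg adjustment, with calls made below an adjusted p of 0.05 where the groups also differed at least 2-fold. Of the genes tested, 0 were called (0%), so 0 of the 10 members were called. The smallest adjusted p over all genes was 0.166. At an unadjusted p under 0.05, 1360 genes passed whatever their fold, and DESeq2 called 385 genes. Total estimated counts lay between 64764405 and 83690056, and the 3 GB2 totals were all above the 3 PBS totals. Values per tumor are CPM, estimated counts scaled to the library total and the TMM factor, with factors between 0.914 and 1.04.

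4 members, Lox, Loxl1, Fbn1 and Fbln2, passed an unadjusted p of 0.05 with a difference of 2-fold or more, all toward GB2, against 733 higher genes or 3.74% of all genes tested. In the same 4 members the lowest GB2 value exceeded the highest PBS value, which was the case for 8.61% of all genes tested. DESeq2 called these 4 as well, while edgeR called none of them. Over the same 19602 genes DESeq2 called 385, of which 352 were higher and 33 lower in GB2 tumors. Of the 10 members, 9 had a positive log2 fold change, and the median over the 10 was 0.67, against -0.02 over all genes tested.

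**Figure D1:**
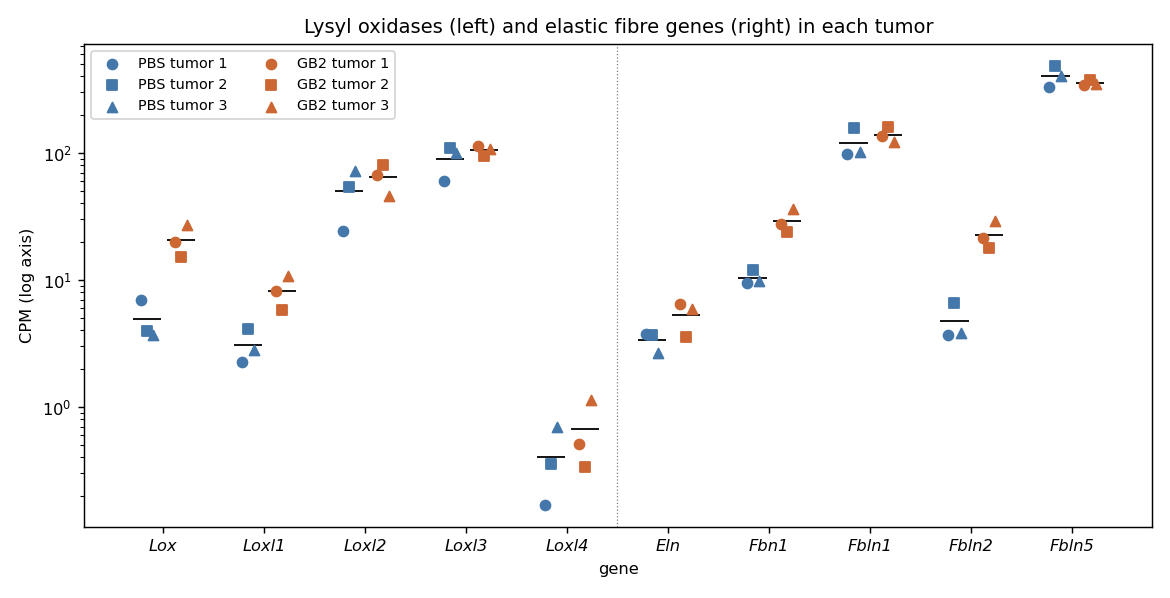
CPM of each of the 10 genes (log axis) in the 3 PBS tumors (blue) and the 3 GB2 tumors (orange), with the marker shape giving the tumor number and the black line the group mean. The colors separate for Lox, Loxl1, Fbn1 and Fbln2 and mix for the other 6 genes.

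Lox encodes the founding member of the enzyme family, which cross-links collagen and elastin. It stood at 6.97, 3.97 and 3.71 CPM in PBS tumors 1, 2 and 3 and at 19.7, 15.1 and 27.0 CPM in GB2 tumors 1, 2 and 3. All 3 GB2 tumors lay above all 3 PBS tumors, and GB2 tumor 3 was the highest. The mean was 4.88 ± 1.81 CPM (SD, n = 3) in PBS and 20.6 ± 6.02 CPM (SD, n = 3) in GB2 tumors. The log2 fold change was 2.08 (SE 0.35, 95% interval 1.27 to 2.89), a fold of 4.23 with an interval of 2.41 to 7.40. The adjusted p was 0.190 by edgeR's quasi-likelihood test and 6.0e-06 by DESeq2. Lox ranked 42 by p among all genes tested. The gene (ENSMUSG00000024529) lies on chromosome 18 from 52649139 to 52662939, minus strand, on the positions of the deposited table.

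Loxl1 encodes the lysyl oxidase that binds fibulin-5 and is tied most closely to elastin cross-linking. In PBS tumors 1, 2 and 3 it stood at 2.27, 4.12 and 2.82 CPM, and in GB2 tumors at 8.11, 5.80 and 10.8 CPM. Again the groups did not overlap, although PBS tumor 2 and GB2 tumor 2 came close. Means were 3.07 ± 0.95 CPM (SD, n = 3) and 8.22 ± 2.48 CPM (SD, n = 3), for a log2 fold change of 1.42 (SE 0.35, 95% interval 0.61 to 2.24). Its adjusted p was 0.306 with edgeR's quasi-likelihood test and 0.00913 with DESeq2. Loxl1 (ENSMUSG00000032334) is located on chromosome 9 from 58195021 to 58220469, minus strand.

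Loxl2 and Loxl3 belong to the branch of the family that carries scavenger receptor domains, and Loxl2 is known for cross-linking type IV collagen of basement membranes. Loxl2 stood at 24.1, 53.9 and 71.5 CPM in the PBS group and at 67.2, 79.9 and 45.4 CPM in the GB2 group. The groups overlapped widely, with PBS tumor 1 lowest and PBS tumor 3 above 2 of the GB2 tumors. The log2 fold change of Loxl2 was 0.36 (SE 0.39, 95% interval -0.56 to 1.29, edgeR adjusted p 0.843). Loxl3 stood at 60.4, 110 and 99.0 CPM in the PBS group and at 113, 94.4 and 106 CPM in the GB2 group. Apart from PBS tumor 1, all Loxl3 values lay close together, and the log2 fold change was 0.22 (SE 0.24, 95% interval -0.34 to 0.79, edgeR adjusted p 0.843). As folds, the upper bounds were 2.44 for Loxl2 and 1.72 for Loxl3, and the lower bounds 0.680 and 0.790. Loxl2 lies on chromosome 14 from 69846517 to 69933283, plus strand, and 35685 bases of it overlap the antisense gene Gm27177, which stood at a mean of 1.01 CPM. Loxl3 lies on chromosome 6 from 83011154 to 83029543, plus strand, and overlaps 1297 bases of Htra2 on the other strand, which stood at a mean of 110 CPM with a log2 fold change of 0.01. Whether the counting used strand is not given in the sources used here, so reads in these overlaps could be assigned to either gene.

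Loxl4, another member of that branch, was close to the detection limit. Its estimated counts were 10, 25 and 49 in the PBS group and 43, 28 and 97 in the GB2 group, and in this table about 4 estimated counts often stand for 1 read pair. The groups overlapped, and its log2 fold change of 0.70 (SE 0.69, 95% interval -0.91 to 2.32, edgeR adjusted p 0.825) was the least precise of the 10. Loxl4 lies on chromosome 19 from 42582421 to 42601252, minus strand.

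Eln was lowly expressed in all tumors. It stood at 3.77, 3.69 and 2.67 CPM in PBS tumors 1, 2 and 3 and at 6.48, 3.52 and 5.87 CPM in GB2 tumors 1, 2 and 3. GB2 tumors 1 and 3 lay above all PBS tumors, but GB2 tumor 2 lay below PBS tumors 1 and 2. The mean was 3.38 ± 0.611 CPM (SD, n = 3) against 5.29 ± 1.56 CPM (SD, n = 3), and the log2 fold change was 0.65 (SE 0.32, 95% interval -0.11 to 1.40) with an adjusted p of 0.757 by edgeR's quasi-likelihood test. As a fold, that interval runs from 0.927 to 2.65. Without GB2 tumor 2, the GB2 tumor inside the PBS range, the Eln log2 fold change was 0.87 (unadjusted p 0.0334, adjusted p 0.968 by edgeR's quasi-likelihood test). By the same test the unadjusted p was 0.0835 with all 6 tumors. With any other tumor left out it ran from 0.0742 (without PBS tumor 1) to 0.239 (without GB2 tumor 1). Eln (ENSMUSG00000029675) lies on chromosome 5 from 134731447 to 134776177, minus strand.

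Fbn1, the microfibril gene, had the smallest spread within the PBS group among the 10 genes, with a coefficient of variation of 12.4%. It stood at 9.49, 11.9 and 9.83 CPM in the PBS group and at 27.3, 23.7 and 36.4 CPM in the GB2 group. The groups were well apart, since the lowest GB2 tumor stood at 23.7 and the highest PBS tumor at 11.9 CPM. From means of 10.4 ± 1.28 and 29.1 ± 6.53 CPM (SD, n = 3 each), the log2 fold change was 1.49 (SE 0.23, 95% interval 0.95 to 2.02). Fbn1 ranked 23 by p, with an adjusted p of 0.186 by edgeR's quasi-likelihood test and 2.7e-06 by DESeq2. It lies on chromosome 2 from 125142514 to 125348305, minus strand, on the positions of the deposited table, which differ from those of GRCm38.

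The fibulins diverged. Fbln2 encodes a fibulin that binds fibrillin-1 and basement membrane proteins, and it had the largest fold change of the 10 genes. It stood at 3.65, 6.63 and 3.82 CPM in the PBS group and at 21.4, 17.8 and 28.9 CPM in the GB2 group. Every GB2 tumor exceeded every PBS tumor, with means of 4.70 ± 1.67 and 22.7 ± 5.67 CPM (SD, n = 3 each). The fold change was 4.82 (95% interval 2.84 to 8.18) and the log2 fold change 2.27 (SE 0.33). Fbln2 ranked 14 by p over all genes tested, with an adjusted p of 0.186 by edgeR's quasi-likelihood test and 5.5e-08 by DESeq2. Fbln2 (ENSMUSG00000064080) spans 91189437 to 91249522 on chromosome 6, plus strand.

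Fbln1, which encodes a fibulin of basement membranes and elastic fibres, stood at 98.4, 156 and 101 CPM in the PBS group and at 136, 160 and 122 CPM in the GB2 group. PBS tumor 2 lay among the GB2 values, so the groups overlapped, and the log2 fold change was 0.23 (SE 0.23, 95% interval -0.30 to 0.77, edgeR adjusted p 0.825). Fbln5, whose product tethers tropoelastin and Loxl1 to cells and microfibrils, was the only member with a negative log2 fold change. It stood at 328, 484 and 405 CPM in the PBS group and at 341, 378 and 351 CPM in the GB2 group. The GB2 values lay inside the PBS range, and the log2 fold change was -0.18 (SE 0.19, 95% interval -0.64 to 0.27, edgeR adjusted p 0.839). That interval spans a fold of 0.643 to 1.20. Fbln1 lies on chromosome 15 from 85090150 to 85170736, plus strand, and Fbln5 on chromosome 12 from 101712824 to 101785314, minus strand.

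**Figure D2:**
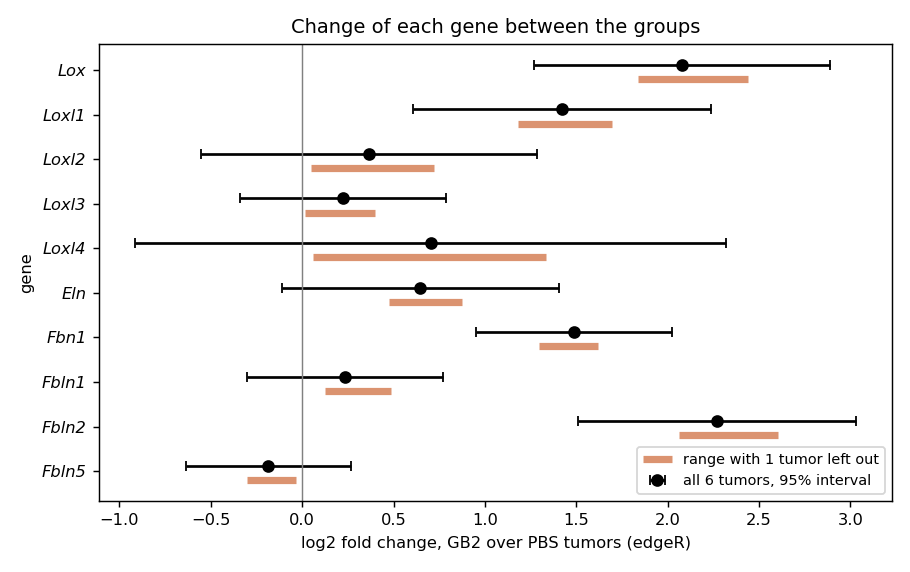
Log2 fold change of each gene, GB2 over PBS tumors, from edgeR with all 6 tumors (points with 95% intervals) and the range when each tumor was left out in turn (orange bars). The intervals of Lox, Loxl1, Fbn1 and Fbln2 lie above 0, those of the other 6 genes include 0, and no orange bar crosses 0.

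Single tumors moved the size of these differences but not their sign. When the fit was repeated without each of the 6 tumors, log2 fold changes ran from 1.84 to 2.44 for Lox, from 1.18 to 1.70 for Loxl1, from 1.30 to 1.62 for Fbn1 and from 2.06 to 2.60 for Fbln2. The lowest value of each of the 4 came without GB2 tumor 3. Of the other members, Loxl2 and Loxl4 had the widest ranges, 0.05 to 0.72 and 0.06 to 1.33. Loxl2 was at 0.05 and Loxl3 at 0.02 without PBS tumor 1, and Loxl4 at 0.06 without GB2 tumor 3. Eln ran from 0.48 to 0.87, Fbln1 from 0.12 to 0.48 and Fbln5 from -0.30 to -0.04.

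The 4 genes did not all vary together between tumors of a group. In 5 members, Lox, Loxl1, Loxl4, Fbn1 and Fbln2, GB2 tumor 3 was the highest of the 6 tumors, followed among the GB2 tumors by tumor 1 and then tumor 2. PBS tumor 1 was the lowest tumor in 8 of the 10 members, the exceptions being Lox and Eln. Over the 6 tumors, log2 CPM of Fbn1 and Fbln2 correlated at 0.99, and at 0.91 after the group means were removed. Loxl1 followed both, at 0.94 with Fbn1 and 0.95 with Fbln2 after the group means were removed. Lox shared the order of the GB2 tumors but not that of the PBS tumors, where tumor 1 was its highest and the lowest for Loxl1, Fbn1 and Fbln2. Its correlation of 0.94 with Fbn1 was 0.36 after the group means were removed, and that of 0.91 with Fbln2 was 0.09. With Loxl2, Lox correlated at 0.08 over all tumors and at -0.96 within groups. These correlations describe 6 tumors that share libraries and group differences.

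Levels of different genes were compared on FPKM, which is scaled to transcript length. By the mean over 6 tumors the order was Fbln5 at 52.8, Fbln1 at 28.3, Loxl3 at 20.4 and Loxl2 at 10.2 FPKM, and these held the same 4 ranks in all 6 tumors. The next 4 lay close together, with Lox at 2.59, Fbln2 at 2.09, Loxl1 at 1.66 and Fbn1 at 1.58 FPKM, and their order changed between tumors. Lox exceeded Fbln2 in 5 of 6 tumors, Fbln2 exceeded Loxl1 in 3 and Loxl1 exceeded Fbn1 in 4. Eln at 0.512 and Loxl4 at 0.122 FPKM were last in every tumor. The 4 genes with higher GB2 values thus shared a level: all were in the middle of this order, below the 4 abundant genes.

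**Figure D3:**
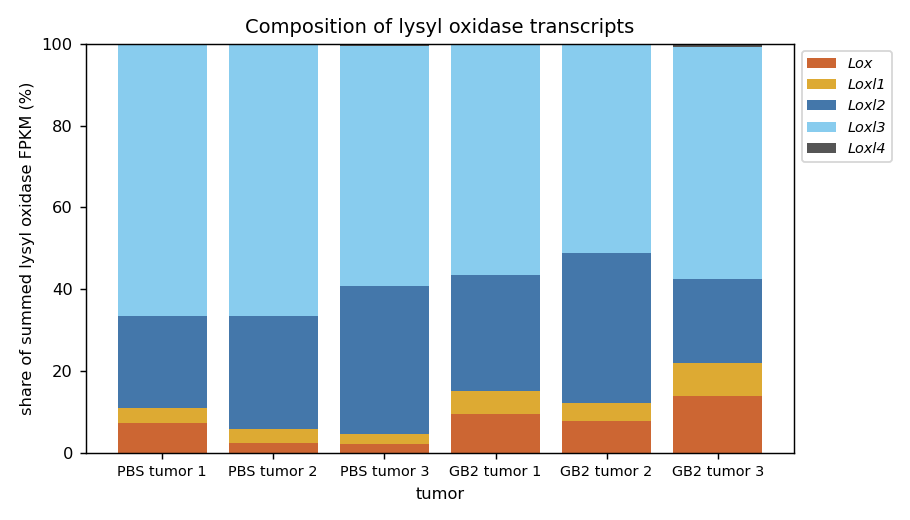
Share of each lysyl oxidase in the summed FPKM of the 5 (percent, stacked to 100) in each tumor. Loxl3 holds over 50% of every bar, and the Lox segment grows from at most 7.38% in the PBS tumors to at least 7.84% in the GB2 tumors.

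The make-up of the lysyl oxidase transcripts was followed as the share of each gene in the summed FPKM of the 5. Lox took 7.38%, 2.31% and 2.12% in the PBS group and 9.42%, 7.84% and 13.9% in the GB2 group, so the groups did not overlap but PBS tumor 1 came close to GB2 tumor 2. The mean Lox share was 6.46 percentage points higher in GB2 tumors (3.93 ± 2.98 against 10.4 ± 3.15, SD, n = 3 each). Loxl1 took 3.08 ± 0.648% in PBS and 6.00 ± 1.85% in GB2 tumors (SD, n = 3 each), also without overlap. Loxl3 took 66.4%, 66.3% and 58.9% in the PBS group and 56.3%, 50.9% and 56.8% in the GB2 group. The GB2 minus PBS difference of its mean share was -9.21 percentage points, and the groups did not overlap in this share. Its own FPKM did overlap, at 11.2, 23.0 and 20.9 in the PBS group and 24.5, 19.6 and 22.9 in the GB2 group. Its CPM values overlapped too. As a share of summed counts, without the length scaling, the Loxl3 groups overlapped as well, with a difference of -8.50 percentage points (exact two-sided permutation p = 0.2). For the FPKM shares of Lox, Loxl1 and Loxl3 the exact two-sided permutation test gave p = 0.1, the smallest that 3 against 3 tumors allow, and 0.167 after adjustment over the 5 shares. The Loxl2 share was 28.8 ± 6.91% and 28.6 ± 8.03% (SD, n = 3 each, exact permutation p = 1), and Loxl4 took less than 1% in every tumor.

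Summed over the 5 enzymes, FPKM was 16.9, 34.6 and 35.5 in the PBS group and 43.5, 38.4 and 40.4 in the GB2 group. All GB2 sums lay above all PBS sums, and PBS tumor 1 was far below the rest. Lox, Loxl1 and Loxl4, the less abundant enzymes, together made up 1.87, 2.08 and 1.74 FPKM in the PBS group and 6.67, 4.77 and 9.11 FPKM in the GB2 group. Loxl4 gave at most 0.266 FPKM of these sums, in GB2 tumor 3, and its own groups overlapped. Among the 3 fibulins, Fbln2 took 0.800%, 0.970% and 0.723% of the summed FPKM in the PBS group and 4.0%, 2.96% and 5.43% in the GB2 group. Fbln5 and Fbln1 thus supplied most fibulin transcripts in both groups. The ratio of Lox to Eln FPKM was 3.14, 1.82 and 2.37 in the PBS group and 5.18, 7.33 and 7.84 in the GB2 group, and the groups did not overlap. The ratio of Fbn1 to Eln was 1.69, 2.15 and 2.48 against 2.83, 4.53 and 4.15, again without overlap. Dividing by Eln thus left the groups of Lox and Fbn1 apart. The ratio of Fbln5 to Eln overlapped, at 102, 154 and 179 against 61.9, 127 and 70.4.

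Genes that act with or on the members were counted in 4 further lists, and edgeR called 0 genes of each. In the lower direction 0 genes passed the unadjusted p and fold limits. Of all genes tested, 3.74% passed them in the higher direction, and in 8.61% every GB2 tumor exceeded every PBS tumor. Of 22 microfibril and elastic fibre partners, 21 were tested, 16 had positive log2 fold changes and 6 passed the unadjusted p and fold limits in the higher direction. The list median was 0.55. Mfap4, a microfibril-associated glycoprotein that binds tropoelastin, stood at 0.845, 1.48 and 1.06 CPM in the PBS group and at 5.10, 3.08 and 8.20 CPM in the GB2 group (log2 fold change 2.27, SE 0.44, edgeR adjusted p 0.219). Emilin2, an elastic fibre interface glycoprotein, stood at 2.03, 3.21 and 1.91 against 8.67, 6.54 and 8.59 CPM (log2 fold change 1.73, SE 0.31, edgeR adjusted p 0.190). Both separated the groups, and GB2 tumor 2 was the lowest GB2 tumor in both, as it was in Lox, Loxl1, Fbn1 and Fbln2. The smallest p among the partners with negative values belonged to Ltbp1, a latent TGF-β binding protein (-0.48, unadjusted p 0.220 by edgeR), and Adamtsl2 (-0.44, unadjusted p 0.291 by edgeR), and both overlapped between groups. The other 4 partners past the limits were Fbn2 at 1.54, Bgn at 1.42, Mfap5 at 1.31 and Vcan at 1.27.

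Of 11 genes for lysyl oxidase maturation and copper supply, 10 were tested, 8 had positive log2 fold changes and 1 passed the unadjusted limits, with a median of 0.54. That gene was Postn, which encodes periostin, a scaffold for Bmp1 and collagen. Postn stood at 22.8, 29.6 and 21.0 CPM in the PBS group and at 73.2, 76.7 and 146 CPM in the GB2 group, without overlap and highest in GB2 tumor 3 (log2 fold change 2.01, SE 0.31, edgeR adjusted p 0.186). Bmp1, the protease that releases the active enzyme from pro-lysyl oxidase, overlapped between the groups at 30.6 ± 13.8 and 48.7 ± 7.37 CPM (SD, n = 3 each). Tll1, a protease related to Bmp1, had a log2 fold change of 0.89 (unadjusted p 0.0640 by edgeR). The copper genes did not separate: Atp7b had -0.84, Atox1 -0.39, and Atp7a, which loads copper into secreted enzymes, 0.78, each with overlapping groups.

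Of 13 collagen substrates and lysyl hydroxylases, all were tested, 8 had positive log2 fold changes and 5 passed the unadjusted limits, namely Col1a1 at 1.45, Col1a2 at 1.44, Col3a1 at 1.64, Col5a1 at 1.41 and Col5a2 at 1.72. The list median was 0.71. Col3a1, which encodes fibrillar type III collagen, stood at 146, 161 and 100 CPM in the PBS group and at 421, 362 and 484 CPM in the GB2 group (log2 fold change 1.64, SE 0.23, edgeR adjusted p 0.186). The groups were far apart, and the 5 collagen genes past the limits all encode chains of fibrillar collagens. Col11a1, another fibrillar collagen gene, had 0.71 with overlapping groups. The type IV collagen genes Col4a1 at 0.73 and Col4a2 at 0.64 separated the groups but did not reach the fold limit. The lysyl hydroxylases had values below 0, with Plod1 at -0.14, Plod2 at -0.30 and Plod3 at -0.05. Plod2, which modifies the lysines of collagen telopeptides, was below every PBS tumor in all GB2 tumors, at 324 ± 31.2 and 264 ± 19.1 CPM (SD, n = 3 each), with an unadjusted p of 0.113 by edgeR. Col2a1, a fibrillar collagen of cartilage, had -1.46 with PBS tumor 3 at 172 CPM and the other tumors at 6.70 to 41.2 CPM.

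Of 11 elastin-degrading proteases, 8 were tested, 7 had positive log2 fold changes and 3 passed the unadjusted limits, with a median of 0.97. Mmp9, a gelatinase that also cuts elastin, stood at 3.31, 1.32 and 2.14 CPM in the PBS group and at 9.48, 12.4 and 11.8 CPM in the GB2 group (log2 fold change 2.32, SE 0.37, edgeR adjusted p 0.186). Ctss, a lysosomal protease of macrophages that can degrade elastin outside cells, stood at 18.1, 18.3 and 9.25 against 38.5, 52.8 and 67.3 CPM (log2 fold change 1.80, SE 0.33, edgeR adjusted p 0.193). Both separated the groups, and the third gene was Mmp2 at 1.10. Mmp12, macrophage elastase, stood at 7.27 ± 4.89 against 16.9 ± 5.57 CPM (SD, n = 3 each) with overlapping groups. Mmp14, which activates Mmp2, had the only negative value, and its means were 183 ± 23.8 and 182 ± 18.4 CPM (SD, n = 3 each). Elane and Prtn3 did not pass the filter, and Mmp7 was not analysed here.

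**Figure D4:**
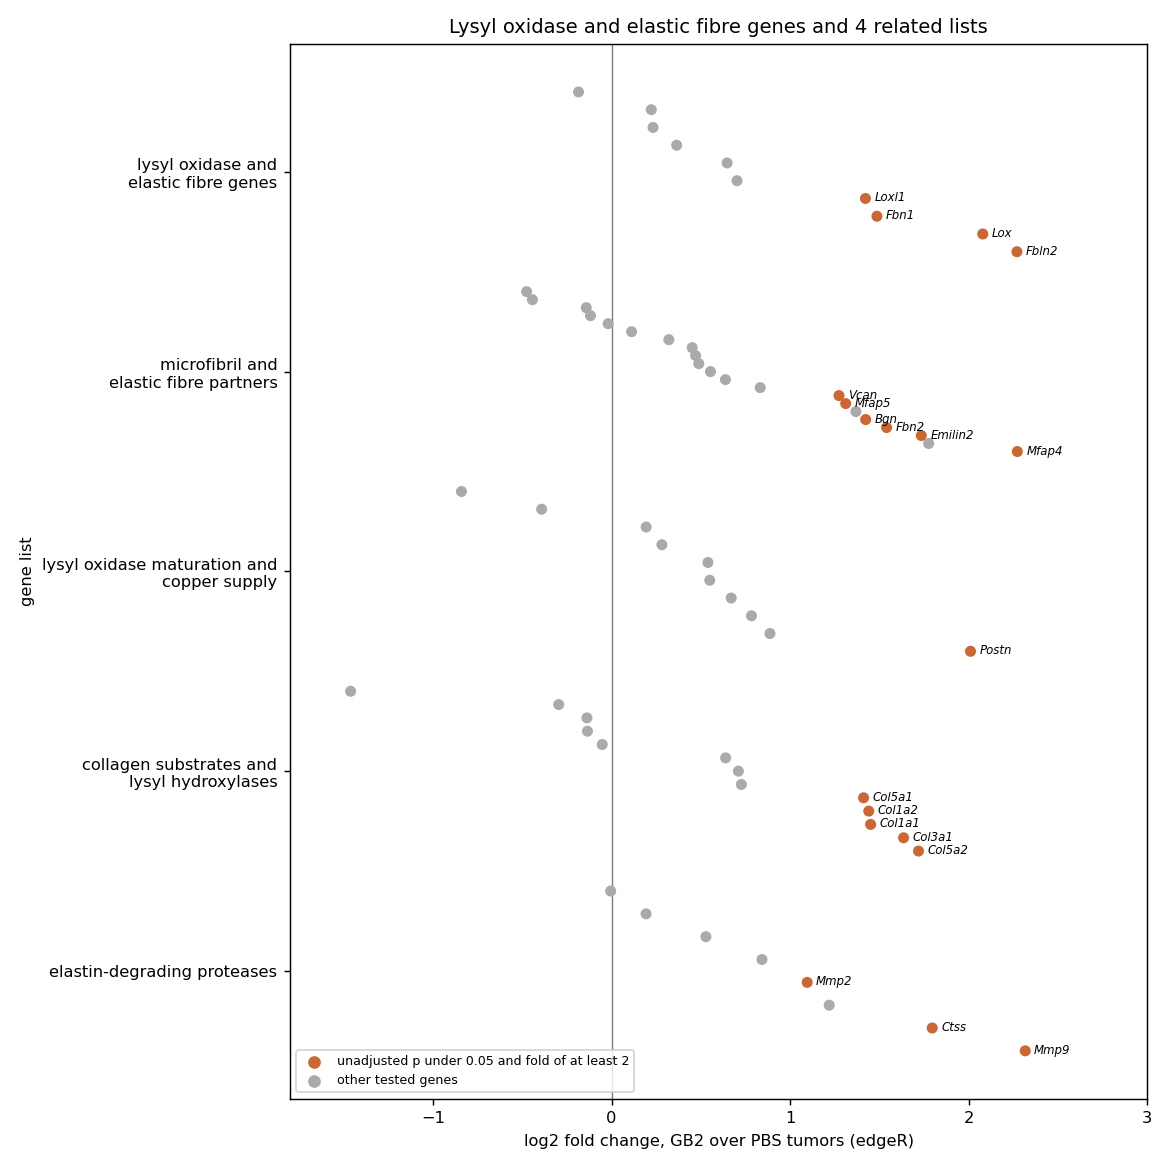
Log2 fold change, GB2 over PBS tumors (edgeR), of each tested gene in the 10 members and 4 related lists, with genes past an unadjusted p of 0.05 and a fold of 2 in orange and named. Orange points lie to the right of 0 in every list, with 4 members, 6 partners, Postn alone in the maturation list, 5 collagens and 3 proteases.

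Marker genes were counted for the cell types that a tumor or the tissue around it can hold, and edgeR called 0 of them. The shares over all genes tested were 3.74% past the unadjusted limits toward GB2 and 8.61% with every GB2 tumor above every PBS tumor. No marker was at 0 in all 6 tumors. Of 10 fibroblast markers, 8 passed the unadjusted p and fold limits toward GB2 and 9 separated the groups, and their summed level was 66.9 to 101 CPM in the PBS tumors and 163 to 191 CPM in the GB2 tumors. All 8 macrophage markers passed, with sums of 32.8 to 51.2 and 119 to 209 CPM. Of 8 endothelial markers, 4 passed and 7 separated the groups, with sums of 63.1 to 77.1 and 126 to 145 CPM. Of 8 smooth muscle and pericyte markers only Des passed, and the sums overlapped at 193 to 380 and 302 to 348 CPM. Their part in the difference of Lox, Loxl1, Fbn1 and Fbln2 was not tested.

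As mean log2 CPM, the fibroblast list differed by 1.34, the endothelial list by 1.02 and the macrophage list by 1.98 between the groups, next to log2 fold changes of 1.42 to 2.27 in the 4 members. The adipocyte list differed by 1.31, with an SD of 2.01 among the PBS tumors. Differences of the remaining lists were 0.90 for epithelial tumor, 0.77 for skeletal muscle, 0.45 for keratinocyte and 0.42 for smooth muscle and pericyte markers. Over the 6 tumors Fbn1 correlated at 0.99 with the fibroblast list, 0.99 with the endothelial list and 0.98 with the macrophage list, and Lox at 0.95, 0.96 and 0.97, values that hold the group difference and cannot single out a list. Eln correlated most with the smooth muscle and pericyte list, at 0.95. Loxl2, Loxl3, Fbln1 and Fbln5 reached at most 0.48 with the fibroblast, endothelial or macrophage list, and Fbln5 was negative with them, at -0.44, -0.40 and -0.43. The highest value of Loxl2 was 0.74 with the skeletal muscle list. For Loxl3 it was 0.59 with the smooth muscle and pericyte list, and for Fbln1 0.52 with the adipocyte list. Skin, fat and muscle around the tumor could also bring matrix genes. Of 6 skeletal muscle markers 5 separated the groups, higher in GB2 tumors as were 8.61% of all genes tested. The limits were passed by 0 of them, and the sums were 81.3 to 145 and 149 to 193 CPM. Keratinocyte and adipocyte sums overlapped, at 20.4 to 83.1 against 66.6 to 114 CPM and at 16.3 to 67.3 against 60.4 to 82.7 CPM. PBS tumor 3 was lowest in both. The part of these lists was not tested either. Markers of colon epithelium were near 0 in these tumors, although MC38 is a colon carcinoma line. Cdx2 and Krt19 did not pass the filter, and the 8 markers summed to at most 8.92 CPM. Epcam stood at 0.284 ± 0.152 CPM in PBS and 0.884 ± 0.125 CPM in GB2 tumors (SD, n = 3 each). It was the 1 marker of this list past the unadjusted limits (log2 fold change 1.64, edgeR adjusted p 0.508). Epcam and Krt20 separated the groups, both higher in GB2 tumors.

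**Figure D5:**
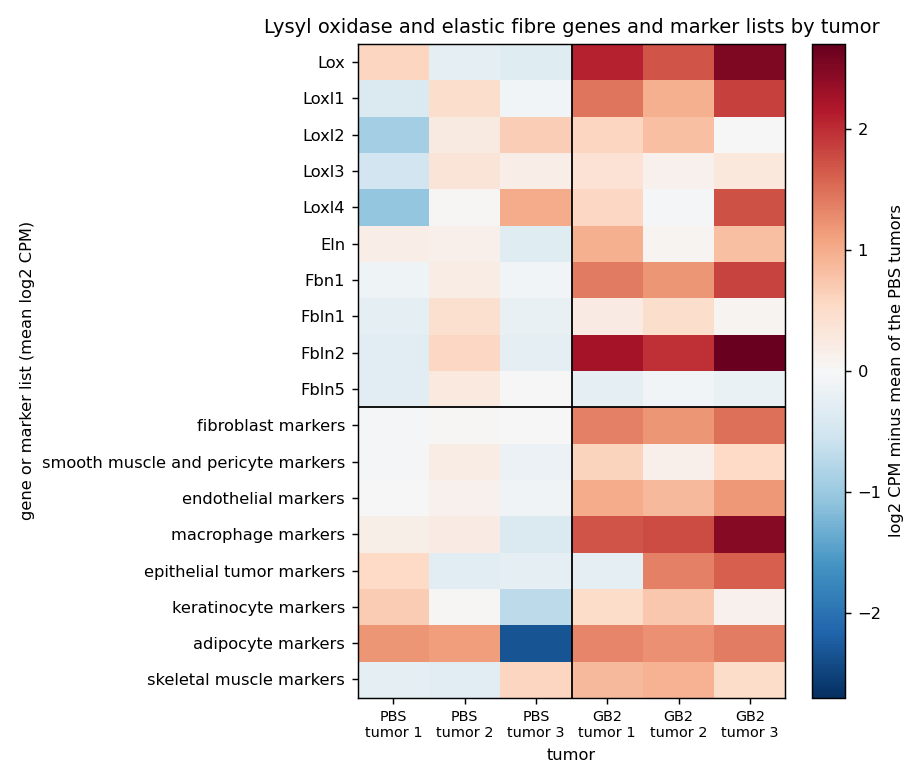
Log2 CPM of each of the 10 genes (top) and mean log2 CPM of 8 marker lists (bottom) in each tumor, minus the mean of the 3 PBS tumors, with red above and blue below it. Lox, Loxl1, Fbn1 and Fbln2 and the fibroblast, endothelial and macrophage lists are red in all 3 GB2 tumors, while Loxl3, Fbln1 and Fbln5 stay pale across the row. The adipocyte list is red in the 3 GB2 tumors too, and also in PBS tumors 1 and 2. Skeletal muscle, keratinocyte and smooth muscle and pericyte lists lie less far above the PBS mean in the GB2 tumors.

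The genes most like Lox, Fbn1 and Eln over the 6 tumors were sought among 14237 genes with a mean of at least 1 CPM, by Pearson correlation of log2 CPM. Closest to Lox were Rnf150 (0.997), Fli1 (0.995) and Klhl6 (0.994), with log2 fold changes of 1.66, 1.70 and 1.48. Closest to Fbn1 were Siglec1 (0.996) and Cd163 (0.994), both receptors of macrophages, and the collagenase gene Mmp13 (0.993), with log2 fold changes of 1.70, 1.76 and 2.30. Eln was closest to Olfm1 (0.997), Fam13a (0.976) and Tmem69 (0.975). Of these 3, Olfm1 had a log2 fold change of 1.28 and Tmem69 of 0.06, so the pattern of Eln was followed by genes of unlike size of difference. With 6 tumors and this many genes, the highest correlations are close to 1 by selection, and they are given as a description.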

How the data were processed

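RNA was sequenced from 6 MC38 tumors as poly-A selected, stranded, paired-end libraries, and groups were taken from the labels. The table the authors deposited gives estimated counts and FPKM of every gene in each tumor, without pooling. The processing notes of the submitters list cutadapt 1.9, HISAT2 2.2.1, StringTie 2.1.6, edgeR, DESeq2 and mm10, without roles. The estimated counts, as deposited, are whole numbers, and their totals are not totals of read pairs. Their low values pile up at 4 and 8, with 7017 values of 4 against 2984 of 3 and 2017 of 5, and 3462 of 8 against 1680 of 7 and 1402 of 9, so that 1 read pair often stands for about 4 counts, although 5446 values of 1 and 4996 of 2 are also present. The FPKM values the authors deposited are scaled to transcript length and library total. Gene positions are those of the deposited table. Against the GRCm38 annotation, 641 of 31999 common gene IDs (2.00%) agreed in start and end, so the genes and the promoter sequences are on different positions. The build the submitters list, mm10, is another name of GRCm38. Why the deposited positions differ from it was not tested.

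The analysis used R 4.3.3 and edgeR 4.0.16: filterByExpr with a minimum count of 10, TMM scaling, glmQLFit and glmQLFTest, and Benjamini-Hochberg adjustment over 19602 genes. The biological coefficient of variation was 40.5%. Standard errors and 95% intervals come from the test statistic, CPM are on TMM-scaled library sizes, and correlations and list means used log2 CPM with a prior count of 2. Alternatives used DESeq2 1.42.0, limma 3.58.1 on log2(FPKM + 1), RLE scaling, other filters, counts divided by 4, a replicate block and each tumor left out. For shares an exact permutation test, two-sided, was used. The fits were tested on simulated counts. Genes of the related lists were named by the smallest p, up to 2 per direction and list, and a few more were added after their values were seen. The members and lists were chosen with earlier results of these data known, so their direction is not independent evidence.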

Additional observations from a re-analysis of the deposited data

How the results depend on the processing

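The log2 fold changes of all 10 members kept their sign under every alternative that gave a value. The number of members called was 0 in edgeR and limma and 4 with DESeq2, which called 385 genes in all. The cause of this difference between the tools was not tested. Lox, Loxl1, Fbn1 and Fbln2 passed the unadjusted p and fold limits in every count-based fit, and Lox and Fbln2, 2 genes, did so with limma on log2(FPKM + 1), with and without its filter, where the pseudocount shrinks the folds of genes near 1 FPKM. Those limma fits passed 131 and 118 genes of all tested, against 913 in the edgeR fit, and without PBS tumor 3 the number was 1380 (range with each tumor left out 707 to 1380, members 4 to 4). Over all alternatives the adjusted p ran from 6.0e-06 to 0.717 for Lox, from 0.00913 to 0.891 for Loxl1, from 2.7e-06 to 0.710 for Fbn1 and from 5.5e-08 to 0.710 for Fbln2. The smallest edgeR or limma values were 0.139, 0.255, 0.144 and 0.139.

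The Loxl2 share of lysyl oxidase FPKM differed by -0.246 percentage points and turned to 3.72 without GB2 tumor 3 and 3.46 without PBS tumor 3 (range -4.31 to 3.72). That of Loxl4 differed by 0.0877 and turned to -0.0536 without GB2 tumor 3 (range -0.0536 to 0.179). The shares of Lox, Loxl1 and Loxl3 kept their direction, and on summed counts the exact permutation p was 0.1 for Lox and Loxl1 and 0.2 for Loxl3 (-8.50), whose groups then overlapped.

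Deviations from the group means correlated at 0.03, 0.15 and -0.24 across genes between tumors with the same number. The labels do not say whether the numbers pair the tumors, and these 3 values cannot exclude it. With the replicate number as a block, 0 members were called, 4 passed the unadjusted limits, and 764 genes passed in all. The paired differences of the Lox, Loxl1 and Loxl3 shares gave an exact sign-flip p of 0.25, the smallest possible. The intervals of Loxl2, Loxl3, Loxl4, Eln, Fbln1 and Fbln5 include 0 and do not show that these genes were alike in the groups.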
